A study of Mus musculus with 6 samples.

Results

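Transcripts of 10 genes of bone morphogenetic protein (BMP) signalling were followed across 3 sorted populations of the mouse lung epithelium. The genes were taken by name from a deposited table of 22239 genes, and all 10 were found in it. They are the ligands Bmp2 and Bmp4, the receptors Bmpr1a, Bmpr2 and Tgfbr2, the inhibitory Smads Smad6 and Smad7, and the target genes Id1, Id2 and Id3. RNA was sequenced in bulk from primary lung cells of mice aged 8 weeks, with 2 samples per population. Bronchioalveolar stem cells (BASC) carried both the CCSP-mCherry reporter of the Club cell gene Scgb1a1 and the SPC-YFP reporter of the surfactant gene Sftpc. Alveolar type 2 (AT2) cells carried SPC-YFP and bronchiolar Club cells carried CCSP-mCherry. Cells bearing CD31 or CD45, markers of endothelium and blood, had been depleted from all lungs before the sort. Each population is what its reporter gate held, not a set of single identified cells. Whether the 2 samples of a population came from different mice is not stated in the labels, and p-values therefore cover the spread between these samples, which may be technical.

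BMP ligands are secreted dimers that bring together type I receptors (Bmpr1a, Bmpr1b, Acvr1) and type II receptors (Bmpr2, Acvr2a, Acvr2b). The type I receptor then phosphorylates the receptor Smads, Smad1, Smad5 and Smad9, which enter the nucleus with Smad4. Id genes are immediate targets of this complex, and Smad6 and Smad7 are targets that feed back to inhibit it. In the lung, Bmp4 is known as a growth factor of the distal epithelial buds in development, and BMP signalling restrains proliferation of adult AT2 and airway progenitor cells.

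The values are normalised read counts, scaled by the authors and rounded to whole numbers. From the spacing of low values, the libraries held an estimated 10124151 to 18203252 reads over the genes in the table, and 3 reads came to between 2.29 and 4.02 normalised counts. The sorted identities followed their markers: AT2 markers (10 of 10 in the table) summed to 1085988 and 1183776 in AT2, 1004043 to 1018538 in BASC and 89972 to 109546 in Club cells. Club markers (10 of 10) summed to between 1187937 and 1202766 in Club cells, 100962 to 124346 in BASC and 19225 to 22148 in AT2. Ciliated cell markers (10 of 10) summed to 7101 and 7219 in Club cells against 883 to 1172 in the other populations, and this difference moves with every comparison against Club cells. Its part in those comparisons was not tested. Of 12 endothelial markers, 7 were in the table, summing to 5584 and 5955 in Club cells, 673 and 764 in BASC and 76 and 83 in AT2. Nearly all of this was Kdr, at 5510 and 5892 in Club cells, 517 and 689 in BASC and 0 and 1 in AT2; the other 6 summed to between 63 and 156. Limma called Kdr and Vwf lower in AT2 than in Club cells. Kdr was also called lower in BASC than in Club cells and higher in BASC than in AT2. Of 12 mesenchymal markers, 9 were in the table, summing to 366 in AT2 replicate 1 and to between 38 and 130 in the other libraries. Col3a1, Pdgfra and Dcn measured 99, 37 and 34 in AT2 replicate 1 and 0 in AT2 replicate 2. Of 12 immune markers, 6 were in the table, and without Lyz2, which AT2 cells also express, they summed to between 179 and 442. Basal cell markers (3 of 6 in the table) summed to at most 59, and neuroendocrine markers (6 of 8) to at most 48. AT1 markers (10 of 10) summed to 8922 and 9695 in Club cells against 17438 to 19856 in BASC and AT2, with 4 called higher and 2 lower in AT2 than in Club cells. The part of these marker differences in the comparisons against Club cells was not tested either. BASC replicate 1 was about as close to the AT2 libraries (Pearson's r of 0.851 with each, over 17721 genes on the log2 scale) as to BASC replicate 2 (0.857). BASC replicate 2 was less close to the AT2 libraries, at 0.838 and 0.840. Genes are not independent replicates.

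The calls among the BMP genes all lay between Club cells and the populations that carry SPC-YFP, with Bmp2 and Id2 the widest apart. Against Club cells, limma called 3 of the 10 genes higher in BASC (Bmp2, Bmp4 and Id2) and 4 of 10 higher in AT2 (the same 3 and Bmpr2), at an adjusted p under 0.05 over all 17721 genes tested. No member was called lower in either comparison. Of all genes tested, 5.77% were called higher and 5.42% lower in BASC than in Club cells, 11.2% in all. In AT2 against Club cells 8.42% were called higher and 9.71% lower, 18.1% in all. Both comparisons share the Club libraries, so they are not independent. Between BASC and AT2, limma called 0 of 10, where 0.553% of all genes tested were called higher and 0.0790% lower, 0.632% in all. At an unadjusted p under 0.05, 1 member (Id1) was higher and 2 (Bmpr2 and Id2) were lower in BASC than in AT2. The median log2 fold change of the 10 genes was 0.58 for BASC over Club cells and 0.62 for AT2 over Club cells, beside -0.10 for all genes tested in each. In BASC against AT2 it was -0.06, beside 0.00. The members and lists were chosen with earlier results of these data known. Their counts and medians beside all genes are therefore a description and not a test.

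**Figure D1:**
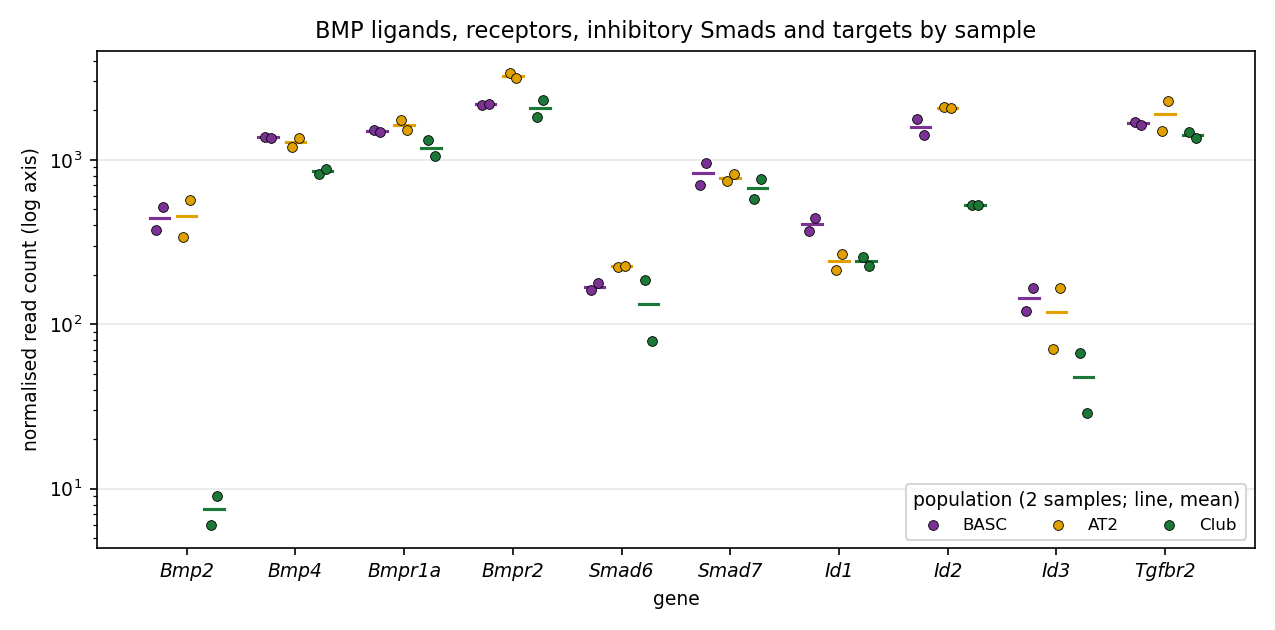
Normalised read count of each of the 10 genes (log axis) in each sample, with points for the 2 samples of BASC, AT2 and Club cells and a line at their mean. Bmp2 lies between 340 and 569 in BASC and AT2 and at 6 and 9 in Club cells, and the other genes span a narrower range.

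Among the ligands, Bmp2 showed the widest difference of all 10 genes. Bmp2 (ENSMUSG00000027358, GRCm38 chromosome 2, 133552159 to 133562885) measured 374 and 513 normalised counts in the BASC libraries, 340 and 569 in the AT2 libraries and 6 and 9 in the Club libraries. BASC and AT2 overlapped, and both Club libraries lay far below every other library. The Club values correspond to an estimated 7 and 9 reads, so the Club level is near the limit of detection. Bmp2 was 59.1-fold higher in BASC than in Club cells (log2 fold change 5.71 with an SE of 0.49, 2 samples in each population, limma adjusted p = 0.000503) and 60.6-fold higher in AT2 (5.72 ± 0.49, adjusted p = 0.000298). Its Club mean was 1.65% of its AT2 mean. Between BASC and AT2 the fitted difference was -0.01, with a 95% interval from -1.15 to 1.13 on the log2 scale, so a difference of up to about this size could not be told from none. Both calls against Club cells held in 15 of 15 alternatives, with fitted values between 5.16 and 6.43.

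Bmp4 (ENSMUSG00000021835, chromosome 14, 46383520 to 46390669) measured 1372 and 1364 in the BASC libraries, 1191 and 1359 in the AT2 libraries and 823 and 878 in the Club libraries. Every Club value lay below every value of BASC and AT2, and the step was much smaller than for Bmp2. Bmp4 was 1.61-fold higher in BASC than in Club cells (log2 fold change 0.69 ± 0.15, limma adjusted p = 0.0293) and 1.5-fold higher in AT2 (0.58 ± 0.15, adjusted p = 0.0363). These calls depended on single libraries and on the settings of the fit. For BASC against Club cells the adjusted p was 0.0955 and 0.100 without BASC replicate 1 or 2, and 0.222 and 0.142 without Club replicate 1 or 2. For AT2 against Club cells it was 0.0553 and 0.123 without AT2 replicate 1 or 2, 0.247 and 0.162 without Club replicate 1 or 2, and 0.0530 and 0.0534 without BASC replicate 1 or 2. The AT2 call was also lost under both other scalings, with adjusted p of 0.0561 under quantile normalization and 0.0798 with scaling to the protein-coding total. It was lost without the filter (0.0533) and in a fit of only the groups compared (0.0588), and without a trend both calls were lost (0.204 for BASC and 0.212 for AT2). The genes Gm15217 and Gm15222 overlap Bmp4 on the other strand, with values of at most 49 and 55.

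Per kilobase of exon, the 2 ligands stood in different proportions in the populations. Bmp4 had 609, 567 and 378 normalised counts per kilobase in BASC, AT2 and Club cells, and Bmp2 had 125, 128 and 2.11. Bmp2 thus made up 14.7% and 19.2% of the sum of Bmp2 and Bmp4 in the BASC libraries, 15.3% and 20.9% in the AT2 libraries and 0.459% and 0.644% in the Club libraries. Shares of this kind are taken within a library and do not depend on the scaling, provided each library was multiplied by 1 factor, which the sources used here do not state.

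Genes with a pattern like that of Bmp2 were sought among 9856 others by the mean absolute difference of centred log2 values over the 6 samples. The closest was Kcne2, a potassium channel subunit gene, with a mean difference of 0.14. It measured 1376 and 1549 in the BASC libraries, 1385 and 1870 in the AT2 libraries and 21 and 29 in the Club libraries. The next were Elfn1, a gene of a leucine-rich repeat membrane protein, at 0.25 and Bmp1 at 0.26.

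Further genes named as ligands of the family were listed for comparison, and 7 of 18 were tested. The list counts and medians include Bmp1, which encodes a protease and not a ligand. Limma called Bmp1 higher in BASC than in Club cells, and Bmp1 higher and Bmp5 lower in AT2 than in Club cells. The shares of all genes called in these comparisons were 11.2% and 18.1%. Over the list, the median log2 fold change was 0.73 for BASC over AT2, 0.45 for BASC over Club cells and -0.42 for AT2 over Club cells. For all genes tested it was 0.00, -0.10 and -0.10. The list medians include Bmp6 and Bmp8a, listed at 0 in both AT2 libraries and at most 30 and 27 in the others. Bmp5 measured 936 and 898 in the BASC libraries, 580 and 523 in the AT2 libraries and 1006 and 895 in the Club libraries. Its AT2 libraries lay below the other 4, and BASC and Club cells overlapped. Bmp5 was 1.72-fold lower in AT2 than in Club cells (log2 fold change -0.78 ± 0.17, limma adjusted p = 0.0197). The call was lost without AT2 replicate 2 (adjusted p = 0.0725), Club replicate 1 (0.190) or Club replicate 2 (0.0907), and without a trend (0.123). Bmp3, an atypical ligand that opposes other BMPs, measured 1815 and 1905 in the BASC libraries, 1460 and 1221 in the AT2 libraries and 1598 and 1999 in the Club libraries, and was not called in any comparison. Bmp2 to Bmp5 together had 1193 and 1232 normalised counts per kilobase in the BASC libraries, 967 and 1060 in the AT2 libraries and 834 and 886 in the Club libraries, so the totals differed less than the make-up. Bmp4 held the largest share of the 4 in every library, between 43.9% and 57.1%.

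Bmp1, despite its name, encodes a procollagen protease that also cleaves the BMP antagonist chordin. It measured 9245 and 10170 in the BASC libraries, 9314 and 10391 in the AT2 libraries and 125 and 283 in the Club libraries. Bmp1 was 47.6-fold higher in BASC and 48.3-fold higher in AT2 than in Club cells (limma adjusted p = 8.37e-05 and 5.07e-05). Bmp1 (chromosome 14, 70474557 to 70520260) lies on the same strand as Sftpc, the gene used for the sort, with 680 bases between them, downstream of it in the direction of transcription. Sftpc had 290809 to 373742 in BASC and AT2 and 224 and 240 in Club cells. The part of transcripts that continue from Sftpc in the Bmp1 values was not tested.

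Of the receptors among the 10 genes, Bmpr2 alone was called, in AT2 against Club cells. Bmpr1a (ENSMUSG00000021796, chromosome 14, 34410734 to 34502687), the broadly expressed type I receptor, measured 1523 and 1465 in the BASC libraries, 1736 and 1510 in the AT2 libraries and 1315 and 1054 in the Club libraries. Both Club values lay below all others, but the gene was not called in any comparison. The fitted difference between AT2 and Club cells was 0.46 with a 95% interval from 0.07 to 0.85 (limma adjusted p = 0.103). Between BASC and Club cells it was 0.34, with an interval from -0.04 to 0.73 (adjusted p = 0.259). The antisense gene Gm17110 overlaps Bmpr1a, with a highest value of 86.

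Bmpr2 (ENSMUSG00000067336, chromosome 1, 59763400 to 59879014), the main type II receptor, was highest in AT2. It measured 2153 and 2185 in the BASC libraries, 3352 and 3148 in the AT2 libraries and 1830 and 2322 in the Club libraries. Both AT2 libraries lay above the other 4, and the BASC values fell between those of the Club replicates. Bmpr2 was 1.57-fold higher in AT2 than in Club cells (log2 fold change 0.66 ± 0.15, limma adjusted p = 0.0219). The call was lost without AT2 replicate 1 (adjusted p = 0.0918), AT2 replicate 2 (0.0699) or Club replicate 1 (0.168), without a trend (0.198) and in a fit of only the groups compared (0.0514). Bmpr2 was not called between BASC and AT2 at a fitted difference of -0.58 ± 0.15 (95% interval from -0.93 to -0.24, adjusted p = 0.152). Gm38125 overlaps Bmpr2 on the same strand, with a highest value of 94.

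Tgfbr2 (ENSMUSG00000032440, chromosome 9, 116084293 to 116175360) is the type II receptor for TGF-beta and does not bind BMPs. It measured 1696 and 1636 in the BASC libraries, 1497 and 2272 in the AT2 libraries and 1474 and 1347 in the Club libraries. The lowest and highest AT2 values enclosed those of BASC, and both Club values lay below all others. No comparison was called, with fitted differences from -0.15 in BASC against AT2 to 0.39 in AT2 against Club cells. Without AT2 replicate 1, the fitted difference between AT2 and Club cells was 0.69 and passed the threshold (adjusted p = 0.0427).

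**Figure D2:**
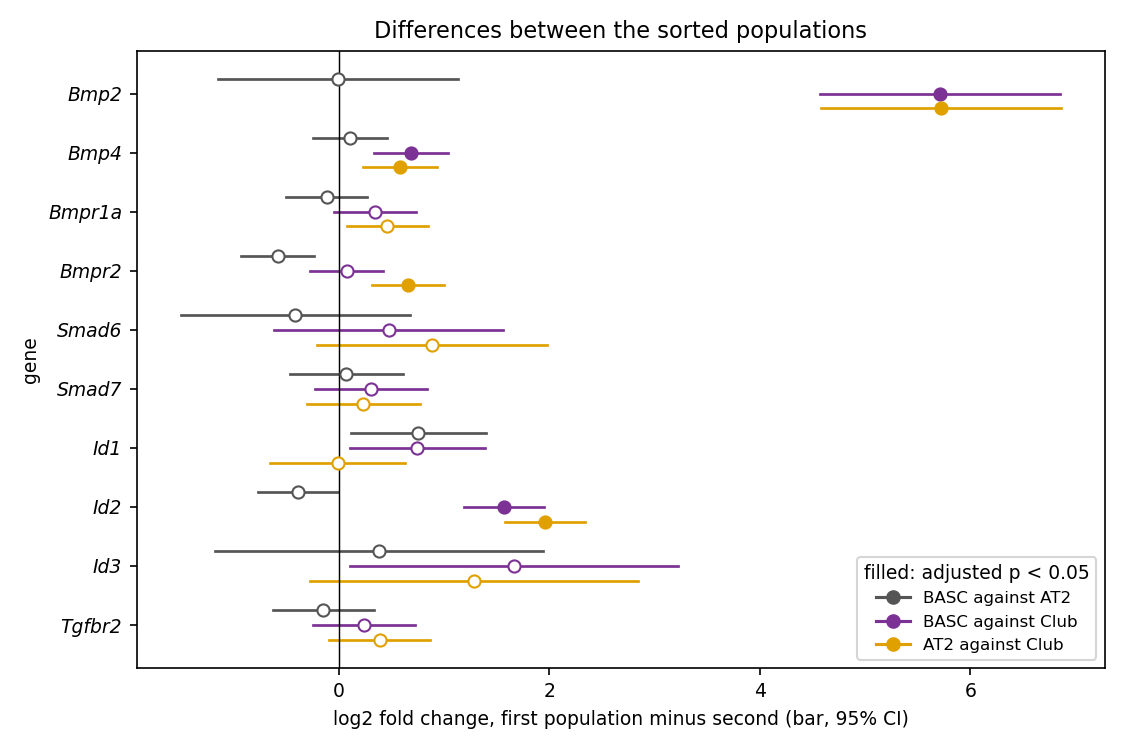
Fitted log2 fold change (x axis, first population minus second) of each of the 10 genes in the 3 comparisons, with 95% confidence intervals and filled points where the limma adjusted p was under 0.05. Bmp2 stands near 5.7 against Club cells, Id2 at 1.57 and 1.96, and no point of BASC against AT2 is filled.

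Of 7 other BMP and activin receptors, Bmpr1b was called in all 3 comparisons and the endothelial type I receptor gene Acvrl1 was called lower in AT2 than in Club cells, at levels of at most 59. The other 5 were not called, and the median over the list was, on the log2 scale, 0.33 for BASC over AT2, 0.11 for BASC over Club cells and -0.29 for AT2 over Club cells. In the same order, 0.632%, 11.2% and 18.1% of all genes tested were called. Bmpr1b (ENSMUSG00000052430, chromosome 3, 141837136 to 142169425), a type I receptor with a narrower distribution than Bmpr1a, had 56 and 183 in BASC, was listed at 0 in both AT2 libraries, and had 2291 and 2705 in Club cells. The 3 populations did not overlap, and BASC lay between the others. Against the level that 3 reads per AT2 library would give, Bmpr1b was at least 43.5-fold higher in BASC and at least 908-fold higher in Club cells than in AT2 (limma adjusted p = 0.0135 and 8.07e-05), bounds that cover counting error only. It was 20.9-fold lower in BASC than in Club cells (log2 fold change -4.60 ± 0.73, adjusted p = 0.00841). The difference between BASC and AT2 was not called without BASC replicate 1 (adjusted p = 0.0730), BASC replicate 2 (0.180) or AT2 replicate 2 (0.0503), or with only the groups compared (0.218). That between BASC and Club cells was not called without Club replicate 1 (0.0975) or Club replicate 2 (0.120).

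Per kilobase of exon, Bmpr1b made up 65.0% and 73.2% of the sum of Bmpr1a and Bmpr1b in the Club libraries. The share was 3.77% and 11.7% in BASC and 0% in AT2. Club cells thus had more Bmpr1b than Bmpr1a transcript by length, and AT2 cells had Bmpr1a alone of the pair above detection. In bulk samples, fewer cells with a transcript and less transcript per cell cannot be told apart. This applies to the BASC value of Bmpr1b, and the Club marker sum in BASC was 100962 to 124346.

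**Figure D3:**
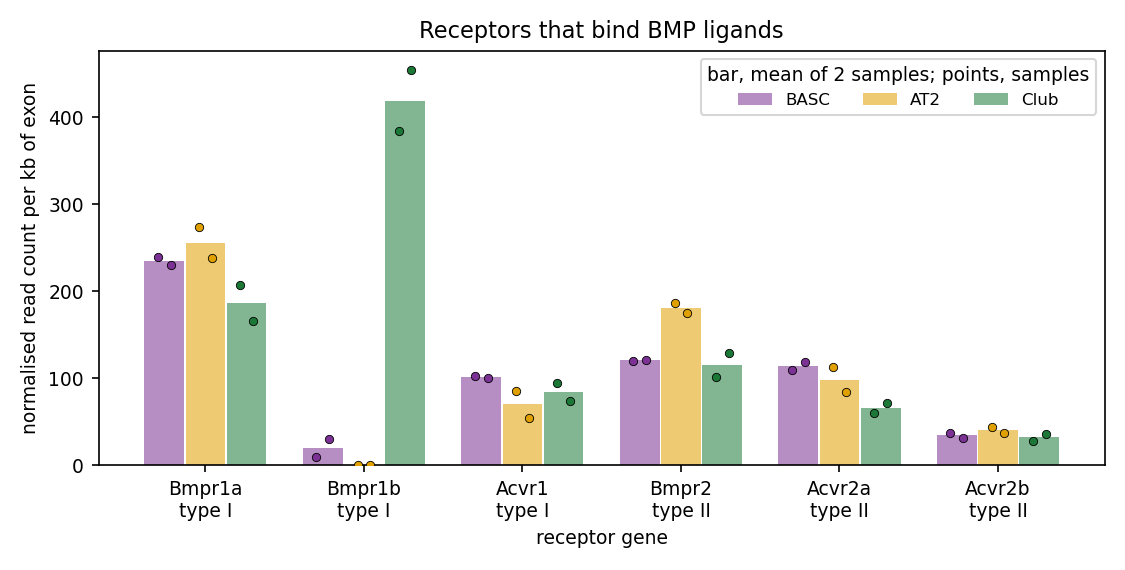
Normalised read count per kilobase of exon of the type I and type II receptors that bind BMP ligands, as bars for the mean of 2 samples and points for the samples. Bmpr1b stands at a mean of 419 in Club cells, 20.0 in BASC and 0 in AT2, while Bmpr1a lies between 187 and 256 in all 3 populations.

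Neither inhibitory Smad was called in any comparison. Smad6 (ENSMUSG00000036867, chromosome 9, 63953076 to 64022059), which acts mainly on BMP receptors, measured 161 and 177 in the BASC libraries, 224 and 226 in the AT2 libraries and 186 and 79 in the Club libraries. AT2 lay above the other libraries, and the Club replicates lay far apart, on both sides of BASC. Its widest fitted difference, AT2 against Club cells, was 0.89 with a 95% interval from -0.20 to 1.98 (limma adjusted p = 0.258). Smad7 (ENSMUSG00000025880, chromosome 18, 75367529 to 75395935), which inhibits both BMP and TGF-beta receptors, measured 705 and 950 in the BASC libraries, 744 and 815 in the AT2 libraries and 574 and 764 in the Club libraries. All 3 populations overlapped, and the fitted differences lay between 0.07 and 0.31 with adjusted p of at least 0.486.

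Among the target genes, only Id2 was called. Id proteins are helix-loop-helix factors without a DNA-binding region, which hold their partners off DNA. Id2 (ENSMUSG00000020644, chromosome 12, 25093799 to 25097140) measured 1775 and 1408 in the BASC libraries, 2089 and 2055 in the AT2 libraries and 533 and 530 in the Club libraries. The 3 populations did not overlap, with AT2 highest and Club cells lowest. Id2 was 2.99-fold higher in BASC than in Club cells (log2 fold change 1.57 ± 0.16, limma adjusted p = 0.00133) and 3.90-fold higher in AT2 (1.96 ± 0.16, adjusted p = 0.000266). Both calls held in 15 of 15 alternatives, with fitted values from 1.4 to 1.74 for BASC and 1.84 to 1.97 for AT2. BASC and AT2 differed by -0.39 ± 0.16 (95% interval from -0.77 to -0.01), which was not called (adjusted p = 0.370).

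Id1 followed another order. Id1 (ENSMUSG00000042745, chromosome 2, 152736251 to 152737410) measured 371 and 443 in the BASC libraries, 214 and 268 in the AT2 libraries and 256 and 227 in the Club libraries. Both BASC libraries lay above the other 4, and AT2 and Club cells overlapped, with means of 241 and 241.5. The BASC mean was 1.69-fold that of AT2 and 1.69-fold that of Club cells. Neither difference was called, at fitted values of 0.76 ± 0.27 (95% interval from 0.11 to 1.4, limma adjusted p = 0.298) and 0.75 ± 0.27 (0.11 to 1.39, adjusted p = 0.142). Over the alternatives, the adjusted p ranged from 0.270 to 0.509 against AT2 and from 0.105 to 0.572 against Club cells.

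Id3 (ENSMUSG00000007872, chromosome 4, 136143497 to 136145392) was the lowest of the 3 targets. It measured 121 and 167 in the BASC libraries, 71 and 167 in the AT2 libraries and 67 and 29 in the Club libraries. Both Club values lay below those of BASC and AT2, and the replicates of AT2 and of Club cells lay far apart. The means of BASC and AT2 were 3.0-fold and 2.48-fold that of Club cells, without a call (limma adjusted p = 0.175 and 0.251). The 95% interval for BASC against Club cells ran from 0.10 to 3.22 on the log2 scale, so the size of this difference is poorly bounded.

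The remaining family member, Id4, was listed among other targets and went against Id2. Id4 measured 167 and 102 in the BASC libraries, 32 and 106 in the AT2 libraries and 369 and 345 in the Club libraries. It was 5.17-fold lower in AT2 than in Club cells (log2 fold change -2.59 ± 0.61, limma adjusted p = 0.0259). The call was lost without BASC replicate 1 (adjusted p = 0.0531), BASC replicate 2 (0.0510), AT2 replicate 1 (0.0635), Club replicate 1 (0.112) or Club replicate 2 (0.0913), without a trend (0.0912) and with only the groups compared (0.0581). Per kilobase of exon, Id1 to Id4 together measured 1159 and 1079 normalised counts in the BASC libraries, 1089 and 1195 in the AT2 libraries and 573 and 519 in the Club libraries. Id2 made up 62.8% and 53.5% of this sum in the BASC libraries, 78.7% and 70.6% in the AT2 libraries and 38.2% and 41.9% in the Club libraries. Id1 made up 27.6% and 35.4% in the BASC libraries, 16.9% and 19.3% in the AT2 libraries and 38.5% and 37.7% in the Club libraries. Id4 held 16.7% and 17.3% in Club cells and at most 3.74% in any library of BASC or AT2.

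**Figure D4:**
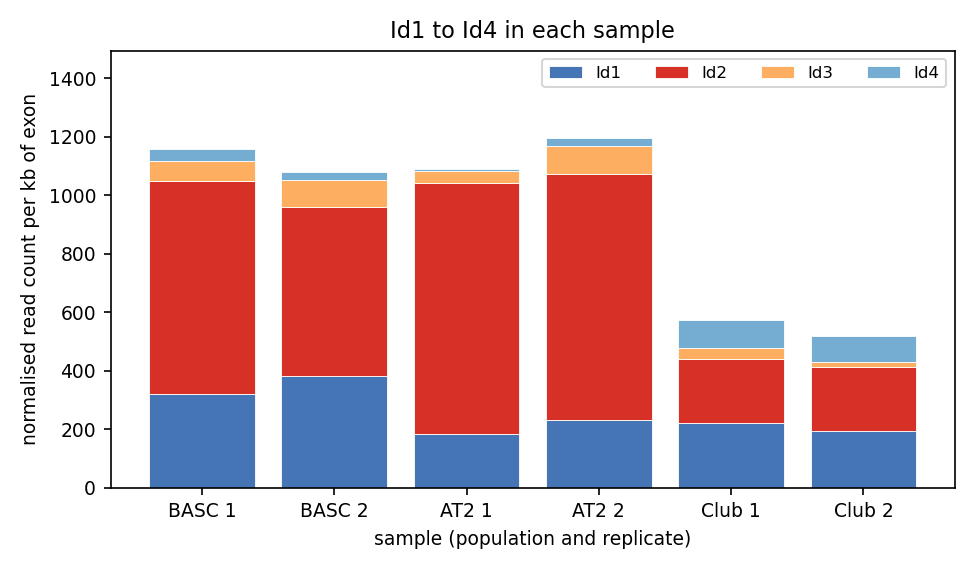
Normalised read count per kilobase of exon of Id1 to Id4, stacked for each of the 6 samples. The sums are 1079 to 1195 in BASC and AT2 and 519 and 573 in Club cells, and Id2 is the largest part in BASC and AT2.

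Sequence before the RefSeq start of Id2, Id4 and Bmp4 is shown because Id2 and Bmp4 were called against Club cells and Id4 went the other way. The stretches come from RefSeq windows on GRCm38.p6, 5′ to 3′ on the gene's strand, with bases in GENCODE M21 exons left out. The Id2 stretch lies inside the gene's deposited interval, in an intron of the longer transcript Id2-202 that GENCODE starts further upstream. Capitals mark GGCGCC, a palindrome described as a binding sequence of BMP-activated Smads.
Id2, chr12:25096254-25096342, minus strand: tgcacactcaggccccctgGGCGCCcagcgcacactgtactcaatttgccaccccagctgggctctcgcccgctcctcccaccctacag
Id4, chr13:48260866-48261115, plus strand: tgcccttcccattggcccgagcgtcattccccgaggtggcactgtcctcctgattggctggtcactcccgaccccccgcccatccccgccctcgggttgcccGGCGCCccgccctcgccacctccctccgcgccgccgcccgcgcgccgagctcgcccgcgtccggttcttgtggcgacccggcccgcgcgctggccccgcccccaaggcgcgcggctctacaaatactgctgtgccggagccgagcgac
Bmp4, chr14:46390670-46390919, minus strand: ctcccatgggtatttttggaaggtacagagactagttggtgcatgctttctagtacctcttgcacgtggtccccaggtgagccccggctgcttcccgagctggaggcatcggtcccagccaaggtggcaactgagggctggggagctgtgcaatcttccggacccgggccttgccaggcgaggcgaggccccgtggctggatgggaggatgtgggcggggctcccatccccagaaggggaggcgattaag
Id2 and Id4 each hold 1 GGCGCC, whose first base lies 231 and 148 bases before the RefSeq start, and the Bmp4 window holds none. RefSeq windows were found for 7 of the 10 genes. In the 250 bases before the start, GGCGCC was present in 3 of 7 (Bmpr1a, Bmpr2 and Id2), beside 9.59% of all 32851 windows. GTCTG or its reverse complement CAGAC, a core Smad sequence, was present in 2 of 7 (Id3 and Tgfbr2), beside 42.2%. The GC box GGGCGG or CCGCCC was present in 6 of 7, beside 32.7%. GGCGCC and the GC box can share bases where they lie side by side. Both strands were searched, and a match is a description of letters only.

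Extracellular modulators showed differences in both directions. Of 24 listed, 14 were tested: 1 was higher in BASC than in AT2 (Crim1), 1 higher and 1 lower in BASC than in Club cells, and 2 higher and 2 lower in AT2 than in Club cells. In the same order, 0.632%, 11.2% and 18.1% of all genes tested were called. Over the list, the median log2 fold change was 0.03, -0.43 and -0.52 in these comparisons, beside 0.00, -0.10 and -0.10 for all genes. Bambi, a decoy receptor without a kinase and a BMP target, measured 959 and 1204 in the BASC libraries, 1388 and 1509 in the AT2 libraries and 197 and 295 in the Club libraries. Bambi was 4.40-fold higher in BASC (log2 fold change 2.15 ± 0.24, limma adjusted p = 0.00190) and 5.89-fold higher in AT2 (2.58 ± 0.24, adjusted p = 0.000490) than in Club cells, in 15 of 15 alternatives each.

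Crim1, a membrane protein that binds BMPs, ran the other way. It measured 726 and 674 in the BASC libraries, 160 and 230 in the AT2 libraries and 1333 and 1384 in the Club libraries, with no overlap between populations. It was 6.97-fold lower in AT2 than in Club cells (limma adjusted p = 0.000235), and this call held in 15 of 15 alternatives. BASC exceeded AT2 3.59-fold (adjusted p = 0.0208), a call lost without BASC replicate 1 (0.180) or 2 (0.24), without a trend (0.112) and with only the groups compared (0.209). It was 1.94-fold lower in BASC than in Club cells (adjusted p = 0.0393), lost without BASC replicate 1 (0.116), BASC replicate 2 (0.150), Club replicate 1 (0.221) or Club replicate 2 (0.249), without the filter (0.0540) and without a trend (0.166). Nbl1, a secreted BMP antagonist gene of the DAN family, measured 35 and 36 in the BASC libraries, 0 and 5 in the AT2 libraries and 278 and 168 in the Club libraries. Nbl1 was lower in AT2 than in Club cells (adjusted p = 0.00697, or 0.0646 without Club replicate 1). Htra1, a secreted protease gene, had 124 and 302 in AT2 and 9 to 30 in the other libraries, and was higher in AT2 than in Club cells (adjusted p = 0.0332). That call was lost without BASC replicate 1 (0.0545) or 2 (0.0547), AT2 replicate 1 (0.0598) or 2 (0.157), or Club replicate 1 (0.167), without a trend (0.0602) and with only the groups compared (0.0559). Htra1 lies within the deposited interval of Fgfr2 on the other strand, and Fgfr2 had 4828 to 21888.

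Among the Smads that carry the signal, calls lay in AT2 against Club cells alone. Of 6 Smads tested, Smad1 and Smad2 were higher in AT2 than in Club cells, where 8.42% of all genes tested were called higher. None was called in BASC against Club cells or AT2, where 11.2% and 0.632% of all genes were called in either direction. In BASC against AT2 limma found 0 of 6 at an unadjusted p under 0.05, and in BASC against Club cells 2 higher and 1 lower. Medians were 0.22, 0.29 and 0.02 in the 3 comparisons. Smad1, a BMP-activated Smad, measured 488 and 397 in the BASC libraries, 570 and 540 in the AT2 libraries and 210 and 280 in the Club libraries. It was 2.27-fold higher in AT2 than in Club cells (log2 fold change 1.19 ± 0.25, limma adjusted p = 0.0178), a call lost without AT2 replicate 1 (0.0759) or 2 (0.0677) or Club replicate 1 (0.139), and without a trend (0.0754). Smad2, which is activated by TGF-beta receptors, was 1.81-fold higher (adjusted p = 0.0167), lost without AT2 replicate 1 (0.0524) or 2 (0.0730) or Club replicate 1 (0.0806) or 2 (0.123), and without a trend (0.109). Smad4, the shared partner, measured 1274 and 955 in the BASC libraries, 1023 and 928 in the AT2 libraries and 1517 and 1509 in the Club libraries, and was not called (adjusted p = 0.0504 for AT2 against Club cells). Smad5 and Smad3 were at 909 to 1515 and 1046 to 1316 in all libraries, without a call.

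Of 16 Smad cofactors and ubiquitin ligases, the same 3 were called in BASC and in AT2 against Club cells, 2 higher and 1 lower, and none in BASC against AT2, where limma found 3 higher and 0 lower at an unadjusted p under 0.05. Medians were -0.07, 0.26 and 0.09 for BASC over AT2, BASC over Club cells and AT2 over Club cells. The shares of all genes called were 0.632%, 11.2% and 18.1%. Ski, a corepressor that binds Smads, was 2.24-fold higher in AT2 than in Club cells (limma adjusted p = 0.00431) and 1.72-fold higher in BASC (0.0307). Nedd4l, a ubiquitin ligase gene whose product also acts on sodium channels, was 1.69-fold higher in AT2 (0.0114) and 1.52-fold higher in BASC (0.0372). Runx1, a transcription factor gene whose product partners with Smads, was 2.99-fold lower in AT2 (0.000148) and 1.88-fold lower in BASC (0.00345). The Ski and Nedd4l calls in BASC were lost without any single BASC or Club library, with adjusted p from 0.0925 (without BASC replicate 1) to 0.144 (without Club replicate 1) for Ski. For Nedd4l they ran from 0.0963 (without BASC replicate 1) to 0.190 (without Club replicate 2), and its BASC call was also lost under quantile (0.0661) and protein-coding (0.0594) scaling. The Nedd4l call in AT2 was lost without AT2 replicate 2 (0.0527) or Club replicate 2 (0.0549). Without a trend, the calls of Ski (0.0715 in AT2, 0.207 in BASC) and Nedd4l (0.155 and 0.278) were lost, as was that of Runx1 in BASC (0.116).

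Other BMP target genes were called in both directions. Of 17 listed, 8 were tested. Limma called 1 higher (Prdm1) and 3 lower (Id4, Hey1 and Hey2) in AT2 than in Club cells, 1 lower in BASC than in Club cells (Hey2), and 0 in BASC against AT2, with 1 lower at an unadjusted p under 0.05. Medians were 0.13 for BASC over AT2, -0.34 for BASC over Club cells and -1.47 for AT2 over Club cells. For all genes tested they were 0.00, -0.10 and -0.10, and 0.632%, 11.2% and 18.1% were called. Hey2 was listed at 0 in every BASC and AT2 library and at only 27 and 29 in the Club libraries. Hey1, a repressor gene shared with Notch signalling, measured 15 and 4 in the BASC libraries, 1 and 5 in the AT2 libraries and 106 and 135 in the Club libraries (AT2 against Club cells, adjusted p = 0.0212). It was lost without AT2 replicate 1 (0.0695) or Club replicate 1 (0.159) or 2 (0.199). Prdm1, a transcriptional repressor gene, measured 52 and 49 in the BASC libraries, 318 and 248 in the AT2 libraries and 2 and 19 in the Club libraries (AT2 against Club cells, adjusted p = 0.0113, or 0.0711 and 0.0623 without AT2 replicate 1 or 2).

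Partners of the Id proteins were examined as a further list, of which 7 of 9 were tested. Hes1 was called in all 3 comparisons and Tcf4 in AT2 against Club cells. Medians were -0.08, -0.77 and -0.48 for BASC over AT2, BASC over Club cells and AT2 over Club cells. The shares of all genes called were 0.632%, 11.2% and 18.1%. Tcf4, an E protein gene, measured 1011 and 700 in the BASC libraries, 422 and 383 in the AT2 libraries and 1005 and 1056 in the Club libraries. It was 2.56-fold lower in AT2 than in Club cells (limma adjusted p = 0.00593), while the E protein gene Tcf12 was not called (0.737). The Tcf4 call was lost without a trend (0.0596). Hes1, a Notch target, measured 1667 and 1599 in the BASC libraries, 816 and 844 in the AT2 libraries and 3171 and 2911 in the Club libraries. It was 3.66-fold lower in AT2 (adjusted p = 0.000117) and 1.86-fold lower in BASC (0.00598, or 0.0671 without Club replicate 1 and 0.117 without a trend) than in Club cells. Hes1 was higher in BASC than in AT2 at a log2 fold change of 0.98, a call lost without BASC replicate 1 (0.180) or 2 (0.24), AT2 replicate 1 (0.0916) or 2 (0.0865), or Club replicate 1 (0.0533), without a trend (0.249) and with only the groups compared (0.209). Bhlhe40, a clock-linked repressor gene, lay between 1102 and 1563 in all libraries without a call.

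The TGF-beta list held calls against Club cells. Of 19 ligands, receptors and targets tested, 8 were higher and 1 lower in BASC than in Club cells, and 8 were higher and 4 lower in AT2. None was called in BASC against AT2, where limma found 2 higher and 3 lower at an unadjusted p under 0.05. Medians were 0.09 for BASC over AT2, 0.12 for BASC over Club cells and 0.77 for AT2 over Club cells. For all genes tested, the medians in the same order were 0.00, -0.10 and -0.10, and 0.632%, 11.2% and 18.1% were called. Tgfbi, a secreted matrix protein gene induced by TGF-beta, measured 343 and 232 in the BASC libraries and 554 and 467 in the AT2 libraries, and was listed at 0 in both Club libraries. It was at least 103-fold higher in BASC and at least 183-fold higher in AT2 than the level of 3 reads per Club library (limma adjusted p = 0.000369 and 0.000134). Lrg1, which encodes a glycoprotein that modulates TGF-beta signalling, was 9.22-fold higher in BASC and 22.1-fold higher in AT2 than in Club cells (adjusted p = 0.000229 and 2.80e-05). Ltbp3, which encodes a latent TGF-beta binding protein, was 3.82-fold and 5.49-fold higher (0.000133 and 2.80e-05). The cell cycle inhibitor gene Cdkn1a was 5.16-fold and 6.58-fold higher (0.00521 and 0.00161). These 4 genes were called in 15 of 15 alternatives in both comparisons. The gene lower in BASC was Ltbp2 (limma adjusted p = 0.0325), which was also lower in AT2 (0.0126). Its Club mean was 367.5, beside 70.5 for BASC and 47.5 for AT2. The others lower in AT2 were Tgfb2, Inhba and Inhbb (adjusted p = 0.0227, 0.0351 and 0.0220). Tgfb2 had an AT2 mean of 7.5 against a Club mean of 245.5, Inhba 0.5 against 115 and Inhbb 199 against 610.

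The ligand gene Tgfb1 measured 202 and 91 in the BASC libraries, 322 and 464 in the AT2 libraries and 24 and 27 in the Club libraries. It was 15.4-fold higher in AT2 than in Club cells (limma adjusted p = 0.00289, in 15 of 15 alternatives) and 5.75-fold higher in BASC (0.0321). The BASC call was lost without BASC replicate 1 (0.119), AT2 replicate 1 (0.0557) or 2 (0.0608), or Club replicate 1 (0.110) or 2 (0.0812), without a trend (0.0750) and with only the groups compared (0.0869). Thbs1, whose product activates latent TGF-beta, was highest in BASC at 2843 and 2977, beside 1635 and 1884 in AT2 libraries and 803 and 1169 in Club libraries. Thbs1 was 2.95-fold higher in BASC than in Club cells (adjusted p = 0.00299) and 1.78-fold higher in AT2 (0.0242). The AT2 call was lost without BASC replicate 1 or 2 (0.0589 each), AT2 replicate 1 (0.0667) or 2 (0.119), or Club replicate 1 (0.132), without a trend (0.165) and with only the groups compared (0.0683). The BASC call was lost without a trend (0.0609).

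**Figure D5:**
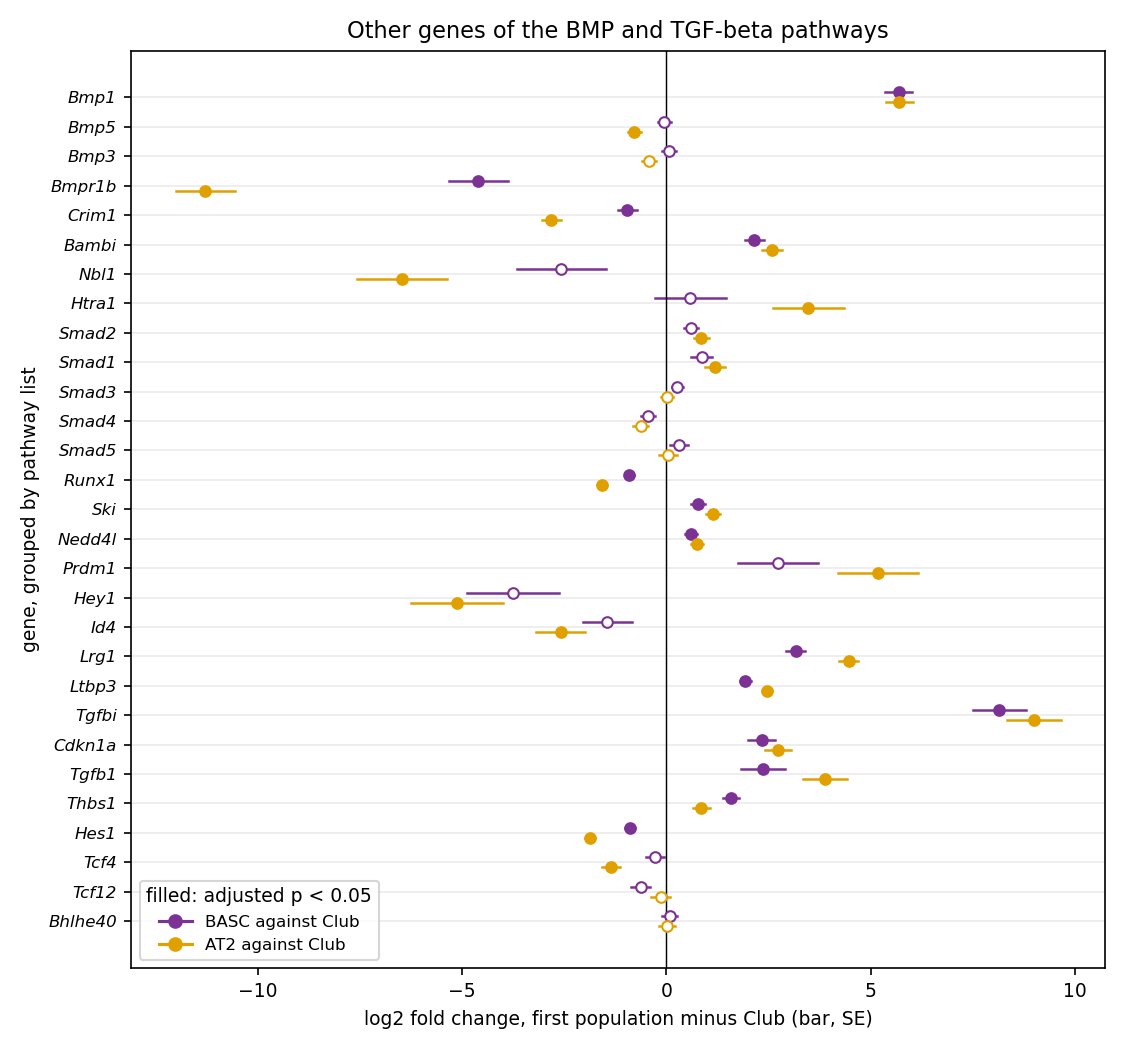
Fitted log2 fold change against Club cells (x axis, bars are SE) of the other named genes of the BMP and TGF-beta pathways, grouped by list, with filled points where the limma adjusted p was under 0.05. Bmpr1b, Crim1, Runx1 and Hes1 lie below 0 in both comparisons, while Bmp1, Bambi, Lrg1, Ltbp3, Tgfbi, Cdkn1a and Tgfb1 lie above.

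Across the 10 genes, values of BASC and AT2 did not overlap for 5 (2 with BASC above, 3 with BASC below), beside 37.2% of all genes tested. BASC and Club cells did not overlap for 7 genes, all with BASC above, beside 54.0% of all genes in either direction. AT2 and Club cells did not overlap for 8 genes, all with AT2 above, beside 58.0%. With 2 samples per group, an exact permutation test of a single gene cannot go below p = 0.333, so the calls rest on the spread that the fit shares across genes and groups. Among genes with a mean of 100 to 1000, replicates differed by a median of 0.39 (BASC), 0.38 (AT2) and 0.25 (Club cells) on the log2 scale, regardless of sign, so differences of the size seen in Smad7 lie within replicate spread. Scaling to the protein-coding total moved the median of all genes in AT2 against Club cells from -0.10 to -0.22. No call of Bmp2 or Id2 was lost under this or quantile scaling.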

How the data were processed

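Libraries of 3 sorted populations, 2 samples each, were made with a kit that marks strand, per the labels' protocols. The submitters' processing notes name FastQC, STAR 2.4.0a, featureCounts 1.4.5-p1 of Subread and the build mm10 (GRCm38). The scaling, the strand setting and the annotation release: not given in the sources used here. Each deposited value is a signal, a read count per gene that the authors scaled and rounded. Units per read, estimated from the spacing of low values, lay between 0.764 and 1.34. Whole reads could not be recovered where a read was worth less than 1 unit, so no count model was run.

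Of the genes, 17721 reached 10 in 2 or more samples. Their log2 values, after adding 1, entered a single limma 3.58.1 fit (R 4.3.3) over the 6 samples with a trend, with 3 residual and 4.20 prior degrees of freedom. The tests are 2-sided, with Benjamini-Hochberg adjustment over all genes tested. The fit was tested on simulated data, with changes placed in BASC in genes above a set level. It recovered 36% of 2-fold changes against AT2 and 35.5% against Club cells, and 90.5% and 92% of 4-fold changes. A gene that was not called can therefore still differ by 2-fold. The simulation changed far fewer genes than were called against Club cells, and set each gene's spread by its level alone. The recovered shares therefore need not hold in the measured comparisons. Folds are ratios of group means, log2 fold changes and intervals (95%) are those of the fit, and bounds against 0 use 3 reads per library averaged over the group. Exon lengths are unions over all transcripts in GENCODE M21, where 99.8% of identifiers were found and 75.9% had the same coordinates. The lengths need not match the features counted, and shares between genes depend on them. Same-numbered replicates did not deviate together (r from 0.0060 to 0.012 across genes).

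Members and lists were chosen with earlier results of these data known. Named genes are the 10 members and, per other list, up to 6 genes called in any comparison, by lowest adjusted p, whose highest group mean reaches 100. Lists with under 3 such genes add any whose mean reaches 1000. Genes most like a member were sought where its group means differed by at least 2 (log2), which held for Bmp2. Names outside this rule were chosen after their values were seen. They are Bmp6, Bmp8a, Acvrl1, Hey2, Tgfb2, Inhba, Inhbb, Ltbp2, Ppp2ca, Zfyve16, Acvr1 and the type II receptors plotted. Alternatives were a pseudocount of 0.5 or 5, no filter or at least 50 in 2 samples, quantile or protein-coding scaling, no trend, only the groups compared, a replicate block, and leaving out each sample.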

Additional observations from a re-analysis of the deposited data

How the results depend on the processing

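Every call against Club cells of Bmp2 and Id2 held in 15 of 15 alternatives, and no alternative called a member between BASC and AT2 or lower against Club cells. Members higher in AT2 than in Club cells numbered 2 in place of 4 without a trend and in a fit of only the groups compared, and those higher in BASC 2 in place of 3 without a trend. With each sample left out, members higher numbered 2 to 3 against Club cells, both in BASC and in AT2. Counts over all genes moved more. Genes higher and lower in BASC against AT2 (98 and 14) were 204 and 61 with the stricter filter and 0 and 0 in a limma fit of only the groups compared, where 927 and 917 had an unadjusted p under 0.05. The genes lower were 25 with a pseudocount of 5, 9 under quantile normalization and 34 without a trend. Without a trend, genes higher than in Club cells numbered 499 in BASC (1022 with it) and 849 in AT2 (1492 with it). Leaving out each sample gave 3 to 100 higher and 0 to 27 lower in BASC against AT2 (0 without BASC replicate 1 or 2, where 1452 and 1079 had an unadjusted p under 0.05), 480 to 913 and 196 to 975 for BASC over Club cells, and 902 to 1459 and 574 to 1832 for AT2 over Club cells. Such fits leave a lone sample that is assumed to vary like the other groups. Of the 30 fitted differences of members, 7 changed sign with a sample left out, all uncalled (Bmp2, Smad7, Id3 and Tgfbr2 in BASC against AT2, Bmpr2 and Smad6 in BASC against Club cells, Id1 in AT2 against Club cells), and those of Bmp2, Bmpr2 and Id1 also under another scaling. In 3 of these the change exceeded the SE: Bmpr2 in BASC against Club cells (-0.10 to 0.24), Smad6 there (-0.14 to 1.09) and Tgfbr2 in BASC against AT2 (-0.45 to 0.15). The causes were not tested. With the replicate number as a block, members higher were 3 in BASC and 4 in AT2 against Club cells, as without it, and 102 genes were higher in BASC than in AT2. The numbers do not pair the samples, with r of deviations from 0.0060 to 0.012 across genes. Depth limits the Club value of Bmp2 and the AT2 value of Bmpr1b.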

Other observations

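The authors' deposited table assigns 72 genes to the KEGG pathway of TGF-beta signalling, including all 10 members, and 68 of these were tested. Limma called 7 higher and 1 lower in BASC than in Club cells, 10 higher and 9 lower in AT2 than in Club cells, and 1 (Bmpr1b, higher) in BASC against AT2. Of all genes tested, 11.2%, 18.1% and 0.632% were called in these comparisons, in either direction. In the same order, the median log2 fold changes were 0.16, 0.04 and 0.16, beside -0.10, -0.10 and 0.00 for all genes tested. Genes called there beyond the lists above were Ppp2ca, a phosphatase subunit gene, and Zfyve16, an endosomal adaptor gene, both in AT2 against Club cells. This list was added after the data were seen.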
